A study of Drosophila melanogaster with 2 samples.

Results

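The core genes of the Notch pathway were described by the regions that NC2beta occupied in and around them in whole Drosophila melanogaster embryos. The 8 genes were N, Dl, Ser, neur, Su(H), mam, H and numb, out of 13945 annotated protein-coding genes, and they were named by a list of symbols with earlier results of these data known, so their counts are a description. Each was given a window that ran from 10 kb before to 10 kb after the gene, and all regions with their summit in that window were taken. The windows held 20 of the 3897 peaks in the authors' optimal set and 143 of the 30000 regions called on the pooled replicates.

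Chromatin immunoprecipitation with sequencing (ChIP-seq) was done with an antibody against GFP on mixed-sex embryos collected at 0 to 24 h from a transgenic line, in which GFP was fused to the C terminus of NC2beta. There was 1 group of 2 biological replicates, numbered 1 and 3, and no other genotype, treatment or time, so no test between groups was possible. All values come from 1 line, and the labels do not say whether untagged NC2beta remained in it. In whole embryos, occupancy in few cells and weak occupancy in many cells cannot be told apart. NC2beta forms with NC2alpha the NC2 complex (also called Dr1 with DRAP1), which binds the TATA-binding protein at core promoters and can repress or activate transcription from them.

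In Notch signalling, a membrane-bound ligand on one cell binds the receptor on its neighbour, and the receptor is then cut so that its intracellular part enters the nucleus. There it joins a DNA-binding protein and a coactivator at target genes, which a corepressor complex holds off in the absence of signal. The pathway is known in the fly embryo for setting apart neural from epidermal precursors and for fates after asymmetric cell divisions.

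NC2beta was found at transcription start sites (TSSs) of 6 of the 8 genes, N, Dl, neur, Su(H), mam and numb, and not at those of H and Ser. Here a bound TSS is one with an optimal summit no more than 250 bp away, and a bound gene has at least 1 such TSS. Of all protein-coding genes, 17.6% were bound by this rule. Because 6 of the 8 genes are at least 15 kb long, a length chosen after the values were seen, the share was also taken among the 1359 genes of that length, where it was 23.3% against 5 of the 6 members. The 8 genes have 13 annotated TSSs, of which 7 were bound, against 14.9% of the 19253 unique TSSs of protein-coding genes. A pooled region of any height lay within 250 bp of each of the 13 TSSs, and 48.5% of all genes had such a region.

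Heights are the authors' own signal values, whose unit the labels do not state, and they serve only to rank and describe regions within a list. The pooled heights of the 20 optimal regions ran from 77.1 to 268, with a median of 98.4, and the median over all 3897 optimal peaks was 112. Only 6 of the 20 lay above that overall median, and 2 lay above the 90th percentile of 258. Both of these were deep in introns, 1 in N and 1 in mam. The 8 optimal regions at a member's own TSS had a median height of 95.8, beside 110 over the 1956 optimal peaks at any protein-coding TSS.

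**Figure D1:**
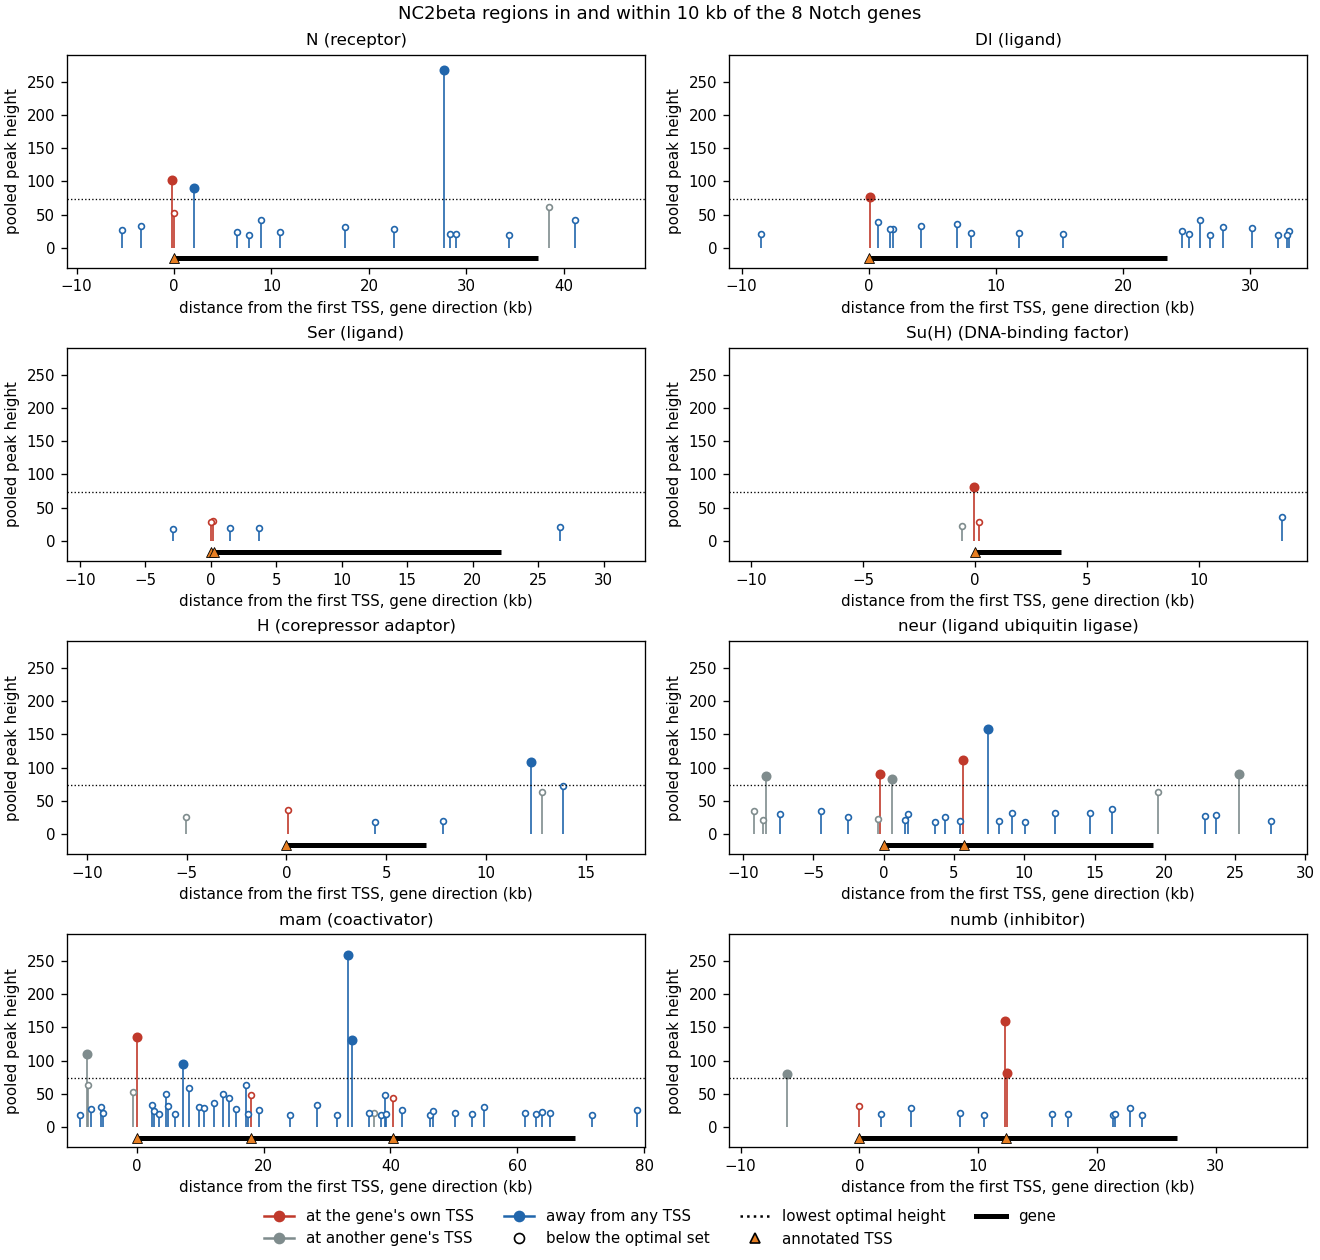
Pooled peak height (authors' signal value, unit not given) against distance from the first TSS of each gene, in kb and in the direction of the gene, for all 143 regions in the 8 windows. Filled points are the 20 optimal peaks, open points lie below the optimal set, the dotted line is the lowest optimal height of 74.1, and colours give the position relative to TSSs. The tallest regions of N and mam stand far from the first TSS, while Ser has only low regions.

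To set the replicates side by side, each optimal peak was matched to the closest summit, at most 250 bp away, in the list of each replicate, and that height was divided by the median of such heights over the optimal peaks, which was 68.8 in replicate 1 and 46.1 in replicate 3. This quotient is called the relative height, and a value of 1 is a typical optimal peak. All 20 optimal regions had a region in both replicates. Of all 3897 optimal peaks, 3888 had one in replicate 1 and 3893 in replicate 3. The log2 ratio of the relative heights was within 1 in 18 of the 20, with 9 higher in replicate 1 and 11 higher in replicate 3. The exceptions were the second TSS of neur and the Kcmf1 TSS in the neur window, and both depended on the matching. With the highest instead of the nearest region within 250 bp, an alternative for this count chosen after seeing the data, all 20 were within 1. Of the 20, 12 were among the 3897 highest regions of both replicates, and 15 with the highest region. For the log2 ratios and for the highest regions of both replicates, the shares over all optimal peaks were not taken. These counts therefore do not set the members apart from other peaks.

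**Figure D2:**
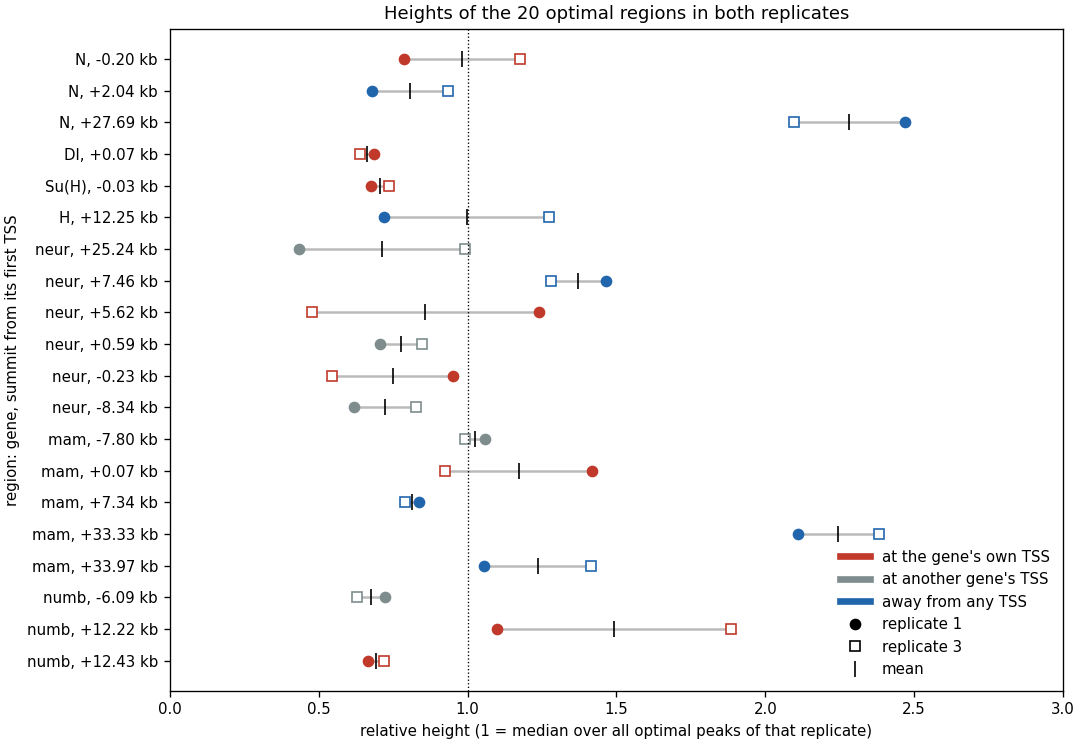
Relative height (1 is the median over all optimal peaks of that replicate) of the 20 optimal regions, named by gene and by distance of the summit from its first TSS in kb. Filled circles are replicate 1, open squares replicate 3 and black ticks their mean. The intronic regions of N at +27.69 kb and of mam at +33.33 kb lie above 2 in both replicates. The regions of the neur window at +25.24 kb (Kcmf1 TSS) and +5.62 kb have the largest log2 ratios between replicates with this nearest-summit matching. On the axis shown, the widest gap is that of numb at +12.22 kb.

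N encodes the receptor (FBgn0004647, chrX:3134870-3172221, plus strand, 1 TSS). Its window held 17 pooled regions, 3 of them optimal. At the TSS the optimal peak had its summit at chrX:3134673, 197 bp upstream. Its height was 54.2 in replicate 1 and 54.2 in replicate 3, which gave relative heights of 0.788 and 1.18 and a mean of 0.982 ± 0.275 (SD, n = 2). The TSS of N was thus close to a typical optimal peak, lower in replicate 1 and higher in replicate 3. A weaker pooled region of height 53.1 lay 40 bp inside the gene and matched the same region of replicate 3.

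The highest region of all 8 windows lay in an intron of N, at chrX:3162558, 27688 bp from the TSS of N. Its pooled height of 268 ranked 359 among the pooled regions, and the TSS of CG18508, the nearest of any protein-coding gene, was 10582 bp away. Its heights were 170 in replicate 1 and 96.6 in replicate 3, with relative heights of 2.47 and 2.10 and a mean of 2.28 ± 0.263 (SD, n = 2). Both replicates placed it above a typical optimal peak and above the TSS of N. The second intronic peak of N, 2042 bp from the TSS, was lower, with heights of 46.7 and 43.1 in replicates 1 and 3 and a mean relative height of 0.807 ± 0.181 (SD, n = 2).

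The sequences of the N regions are shown because the gene's strongest region lies away from its promoter. Both are from build dm6 (Release 6), on the plus strand, with the summit at base 101. Capitals mark matches of the TATA letters TATAAA or the initiator letters TCAGT on either strand, and the TSS region held neither.
N intron, chrX:3162458-3162658: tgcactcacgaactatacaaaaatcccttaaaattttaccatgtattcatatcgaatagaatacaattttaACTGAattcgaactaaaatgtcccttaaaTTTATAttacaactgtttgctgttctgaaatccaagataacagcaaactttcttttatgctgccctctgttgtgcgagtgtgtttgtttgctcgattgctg
N TSS, chrX:3134573-3134773: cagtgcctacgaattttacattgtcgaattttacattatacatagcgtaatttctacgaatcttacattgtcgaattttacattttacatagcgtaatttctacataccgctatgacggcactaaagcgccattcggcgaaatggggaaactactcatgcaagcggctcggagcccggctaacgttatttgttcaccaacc

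The ligands Dl and Ser differed in whether their TSSs were bound. Dl (annotated as Delta, FBgn0000463, chr3R:19302731-19326217, minus strand, 1 TSS) encodes the main ligand of the early embryo. Its TSS peak had its summit in the 5′ UTR, 72 bp into the gene, with heights of 47.2 in replicate 1 and 29.5 in replicate 3. The relative heights were 0.686 and 0.640, with a mean of 0.663 ± 0.0324 (SD, n = 2), so both replicates put Dl below a typical optimal peak. It was the lowest of the 20 regions, rank 3668 of the pooled list, just inside the optimal set of 3897. Another 18 pooled regions were spread over the Dl window, with heights of 18.6 to 41.5, and none was optimal.

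Ser (FBgn0004197, chr3R:27172090-27194267, minus strand) encodes the second ligand, known best from the wing margin. Its window held 6 pooled regions, the fewest of any member over 15 kb, and no optimal peak. Its 2 TSSs lie 272 bp apart, and the highest region near both was the same one, of height 29.3 and rank 14729. The nearest replicate regions were 23.6 in replicate 1 and 13.5 in replicate 3, a mean relative height of 0.318 ± 0.0353 (SD, n = 2). Their summits lay 134 bp (replicate 1) and 241 bp (replicate 3) from the pooled summit, on opposite sides, so they may be different regions. A pooled region of nearly the same height, 29.1, lay 15 bp upstream of the first TSS. It had no region within 250 bp in replicate 3. Ser was low in both replicates, and the −log10 q of its highest region, 0.764, lay far under the ceiling of 4.08. All member optimal peaks and some weaker regions reached that ceiling.

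The gene neur encodes Neuralized, a ubiquitin ligase that makes ligands competent to signal by sending them into endocytosis. It had the most optimal peaks of the 8 (FBgn0002932, chr3R:9020348-9039471, minus strand, 2 TSSs), 6 among 27 pooled regions, or 15.3 per 100 kb of window. Of the 6, 3 lay within 250 bp of TSSs of other genes and not of neur. These were Kcmf1 (height 90.8), Rel, an NF-kappaB factor of the immune response (86.9), and hyx, a component of the Paf1 complex (83.5).

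Both neur TSSs were bound. The peak at the first TSS had heights of 65.5 in replicate 1 and 25.1 in replicate 3, a mean relative height of 0.749 ± 0.288 (SD, n = 2). Its summit lay at -225 bp from the TSS of neur and 70 bp from that of hyx, so it cannot be assigned to either gene. The second TSS lies 5740 bp into the gene, and its peak was 85.3 in replicate 1 but 22.0 in replicate 3, with a mean relative height of 0.859 ± 0.539 (SD, n = 2). The log2 ratio was -1.38. That value rested on which region of replicate 3 was taken: a second one, of height 33.5 and rank 3407, had its summit 3 bp from the TSS and 119 bp from the pooled summit. With it the relative heights were 1.24 and 0.727, their mean 0.983 ± 0.363 (SD, n = 2) and the log2 ratio -0.77. Under either choice the second TSS was lower in replicate 3 than in replicate 1.

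The intronic peak of neur differed less between replicates, with a log2 ratio of -0.19. Its summit was at chr3R:9032011, 1720 bp past the second TSS, with heights of 101 in replicate 1 and 59.0 in replicate 3 and a pooled height of 158. The relative heights were 1.46 and 1.28, with a mean of 1.37 ± 0.130 (SD, n = 2), above a typical optimal peak in both replicates and the highest in the neur window.

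The region at the second neur TSS is shown because it alone among the 13 TSSs had TATAAA at the usual TATA distance, on the strand of the gene with its first base at -26 from the TSS. That distance, from -40 to -20, was chosen after the matches were seen. It held TATAAA at 6.87% of all unique TSSs and at 2.37% of the 2867 bound ones. The intronic region is shown beside it for its height. Both are written in the direction of neur, on the minus strand of dm6, with the summit at base 101 and matches of TATAAA and TCAGT in capitals.
neur second TSS, chr3R:9033747-9033947: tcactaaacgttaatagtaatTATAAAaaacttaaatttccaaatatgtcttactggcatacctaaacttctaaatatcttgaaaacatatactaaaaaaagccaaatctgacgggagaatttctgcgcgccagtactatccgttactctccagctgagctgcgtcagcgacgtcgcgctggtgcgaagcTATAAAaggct
neur intron, chr3R:9031911-9032111: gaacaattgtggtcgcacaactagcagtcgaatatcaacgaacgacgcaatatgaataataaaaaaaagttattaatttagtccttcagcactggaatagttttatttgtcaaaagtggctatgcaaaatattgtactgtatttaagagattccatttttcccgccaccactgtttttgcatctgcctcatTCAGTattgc

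Among the nuclear components, the genes of the DNA-binding factor and the coactivator had bound TSSs and that of the corepressor adaptor did not. Su(H) encodes the factor that brings either complex to target genes, and it is the shortest of the 8 (FBgn0004837, chr2L:15039488-15043334, plus strand, 1 TSS). Its optimal peak, 29 bp upstream of the TSS, was 46.6 in replicate 1 and 33.9 in replicate 3. The relative heights were 0.677 and 0.736, with a mean of 0.707 ± 0.0415 (SD, n = 2), below a typical optimal peak in both. A weaker region of height 28.0 lay 171 bp into the gene and matched the same region of replicate 3.

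The Su(H) sequence is shown as that of the only optimal peak in its window, cut to the bases before the gene. It is on the plus strand of dm6 with the summit at base 101, and the capitals mark TATAAA, which here starts at -102 from the TSS.
Su(H) upstream, chr2L:15039359-15039487: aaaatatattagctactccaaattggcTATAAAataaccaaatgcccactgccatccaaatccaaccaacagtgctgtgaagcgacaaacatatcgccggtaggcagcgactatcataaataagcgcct

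H encodes Hairless, the adaptor through which Su(H) recruits corepressors (FBgn0001169, chr3R:20621938-20628915, plus strand, 1 TSS). The region at its TSS was 26.1 in replicate 1 and 15.7 in replicate 3, with a pooled height of 36.7 at rank 10703 and a mean relative height of 0.361 ± 0.0269 (SD, n = 2). It was low in both replicates and outside the optimal set. The 1 optimal peak of the H window, of height 109, lay 12250 bp downstream of the H TSS and inside another gene, Pi3K92E, a phosphoinositide 3-kinase catalytic subunit. It was 49.5 in replicate 1 and 58.7 in replicate 3, and its summit lay 544 bp from the TSS of Pi3K92E. The pooled region closest below the optimal set among all 8 windows had a height of 72.5 and rank 4024. It lay 13854 bp from the H TSS, inside another gene, Lrrk, and 307 bp from the Lrrk TSS.

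The coactivator Mastermind is encoded by mam, the longest of the 8 genes at 69.15 kb, with 3 TSSs (FBgn0002643). Its window held 49 pooled regions, the most of any member, and 5 optimal peaks. The first TSS was bound, 71 bp into the gene, with heights of 97.6 in replicate 1 and 42.6 in replicate 3 and a mean relative height of 1.17 ± 0.349 (SD, n = 2). It was above a typical optimal peak in replicate 1 and slightly below in replicate 3. The other TSSs, 17996 and 40460 bp from the first, had only weaker regions of heights 48.7 and 43.4.

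The strongest mam region was again intronic. Its summit lay 33.33 kb from the first TSS and 4089 bp from the TSS of CG18371, the nearest of any protein-coding gene. It was 145 in replicate 1 and 110 in replicate 3, with relative heights of 2.11 and 2.38 and a mean of 2.24 ± 0.192 (SD, n = 2). It was high in both replicates, at ranks 445 and 356. A second intronic peak 642 bp away had a mean relative height of 1.24 ± 0.254 (SD, n = 2), and the last, 7344 bp from the first TSS, one of 0.814 ± 0.0327 (SD, n = 2). The remaining optimal peak, of height 111, lay at the TSSs of CG8067 and Ctf4, a replication factor.

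The last member, numb, encodes an inhibitor of Notch that is passed to 1 daughter cell in asymmetric divisions. It carried the highest peak at any of the members' own TSSs (FBgn0002973, chr2L:9437469-9464184, plus strand, 2 TSSs). This peak was not at its first TSS, where the pooled region had a height of 32.5 and a region only in replicate 1. It was at the second TSS, 12361 bp into the gene, with its summit 137 bp upstream. Heights there were 75.5 in replicate 1 and 86.9 in replicate 3, with relative heights of 1.10 and 1.89 and a mean of 1.49 ± 0.557 (SD, n = 2).

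The second TSS of numb was above a typical optimal peak in both replicates and higher in replicate 3. A second optimal peak lay 70 bp past that TSS, with a mean relative height of 0.693 ± 0.0396 (SD, n = 2). Taking the highest region within 250 bp instead of the nearest gives it the value of its neighbour, 1.49. The third optimal peak of the window, of height 79.6, lay 24 bp from the TSS of scat, which encodes a vesicle tethering subunit. None of the 10 pooled numb regions away from any TSS exceeded 29.3.

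The sequence before the second numb TSS is shown as that of the strongest promoter region. It is on the plus strand of dm6 with the summit at base 101. The capitals mark TCAGT, with its first base at -127 from the TSS and so not at the usual initiator position.
numb second TSS, chr2L:9449593-9449793: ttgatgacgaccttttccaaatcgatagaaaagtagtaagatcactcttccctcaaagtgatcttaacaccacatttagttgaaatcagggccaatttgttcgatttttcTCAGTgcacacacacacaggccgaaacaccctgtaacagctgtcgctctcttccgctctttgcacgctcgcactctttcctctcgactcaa

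Ordered by the highest pooled region at a TSS, the genes ran numb (160), mam (135), neur (111), N (101), Su(H) (81.1), Dl (77.1), H (36.7) and Ser (29.3). The order among the upper 4 was not stable between replicates. In replicate 1 mam was the highest, neur took place 2 and numb place 3, whereas in replicate 3 numb was the highest, N took place 2 and neur place 6. By each replicate's own highest region within 250 bp of a TSS, an alternative chosen after seeing the data, neur took place 5 and Dl place 6 in replicate 3, and no other place changed. The relative heights of neighbours in that order overlapped among these 4, and likewise between Su(H) and Dl and between H and Ser. H and Ser held places 7 and 8 in both replicates, and their relative heights of at most 0.380 did not reach those of Dl, at least 0.640.

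**Figure D3:**
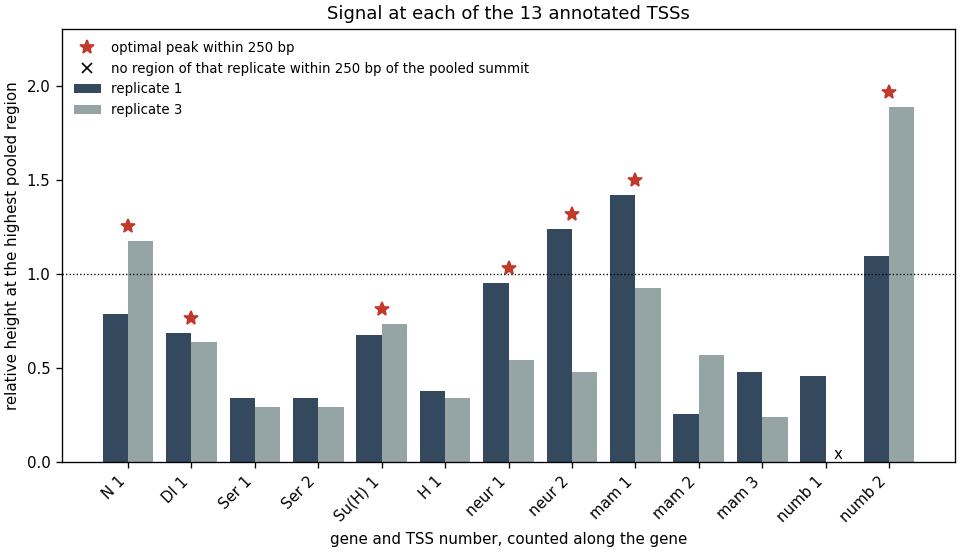
Relative height (1 is the median over all optimal peaks of that replicate) at the highest pooled region within 250 bp of each of the 13 TSSs, matched to the nearest region of each replicate, with replicate 1 in dark and replicate 3 in light bars. Stars mark TSSs with an optimal peak, and a cross marks a replicate with no region within 250 bp of that pooled summit. The second TSS of numb reaches 1.10 and 1.89, and those of neur are higher in replicate 1. The Ser TSSs share 1 pooled region as their highest, and its nearest replicate regions are at 0.343 and 0.293.

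An optimal summit lay in the window of 7 of the 8 genes, all but Ser. This is a common state: 60.1% of all protein-coding genes had one, 69.3% of those at least as long as Su(H), and 68.4% of those of at least 15 kb, against 5 of the 6 such members. The windows together covered 369 kb and held 5.42 optimal summits per 100 kb, beside 2.91 over all analysed chromosome arms and 2.89 over the windows of all genes of at least 15 kb. The members' own densities ran from 0 for Ser to 15.3 for neur. Of the 20 summits, 8 were at the member's own TSS, 5 at the TSS of another gene only, and 7 away from any protein-coding TSS, 6 of those 7 inside the member.

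Such internal peaks away from every TSS occurred in N, neur and mam, 3 of the 6 members of at least 15 kb, while 34% of all genes of that length had 1 or more. The 7 peaks away from TSSs had a median height of 132, beside 116 for all 1941 optimal peaks of that kind. Within those 1941, the intronic peaks of N and mam ranked 165 and 179, that of neur ranked 537, and the others ranked from 760 to 1469. The strongest peaks of N, mam and neur were also narrower than the usual 400 bp, at 256, 268 and 126 bp, and were the only 3 of the 20 that were. Of all optimal peaks 24.2% were narrower than 400 bp, and 90.3% of those above the 90th percentile of height.

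Short motifs were sought as exact letters on both strands within 100 bp of each summit. No motif contains another, and DRE reads the same on both strands. The binding letters of Su(H) itself, GTGGGAA and GTGAGAA, occurred in 1 region each of the 20, both at TSSs of neighbours in the neur window (hyx and Kcmf1), beside 2.51% and 3.23% of all optimal peaks. DRE (TATCGATA) occurred in 1, that of Su(H), beside 5.67%. TATAAA was in 8 of 20 beside 28.2% and TCAGT in 9 of 20 beside 36.3%. The Zelda letters CAGGTAG and the GAGA repeat GAGAGAG were in none of the 20, beside 0.949% and 4.54%.

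In the 250 bases before each TSS, GAGAGAG occurred at 3 of the 13 member TSSs, those of Dl, Ser (second) and numb (first), beside 7.04% of all unique TSSs. TATAAA was at 4 of 13 beside 39.6%, and TCAGT at 3 of 13 beside 38.9%. The searched stretch stops at the TSS, so a TCAGT that spans the TSS, the usual initiator position, was not counted. Of the other letters, DRE was at 0 of 13 beside 6.90%, CAGGTAG at 0 beside 1.52%, GTGGGAA at 0 beside 3.20% and GTGAGAA at 0 beside 2.52%. Only the region of Dl among the 3 with GAGAGAG was at a bound TSS.

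A list of 40 other pathway genes, by role, gave the surroundings of these 8. Of the 40, 14 (35%) had a bound TSS, beside the 17.6% of all protein-coding genes, 19 had only a weaker region and 7 had none. The 14 rested on 13 peaks, and 9 of the 14 genes shared their peak with the TSS of another gene. Of the 7 genes of receptor cleavage, 4 were bound: Fur1, a furin protease (419), aph-1 (174) and Psn (88.6) of gamma-secretase, and kuz, the metalloprotease of the first cut after ligand binding (87.9). Peaks of 9 of the 14 exceeded the median height of all optimal peaks.

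The highest peak of the list was that of lgd, a regulator of endosomal trafficking of the receptor. It had heights of 268 in replicate 1 and 190 in replicate 3 and a mean relative height of 4.01 ± 0.162 (SD, n = 2), and was shared with Reps. With Su(dx), a ubiquitin ligase (85.0), it made 2 bound of 6 genes of receptor ubiquitination and trafficking. Of the 12 nuclear cofactors 2 were bound, gro, the corepressor Groucho (377), and ebi (329). The ebi peak is also that of AP-2alpha, an endocytic adaptor, so it counts for both.

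Ligand activation and endocytosis had 3 of 7 bound, AP-2alpha, the kinase gene Nak (129) and the auxilin gene aux (105). In glycosylation and folding it was 1 of 3, rumi, the O-glucosyltransferase of the receptor (265). In asymmetric division it was 2 of 5, aPKC, the atypical protein kinase C (160), and insc, which orients the spindle (77.1). Su(dx) and insc were named after their values were seen. The TSS peaks of lgd, Fur1, gro, AP-2alpha with ebi, rumi and aph-1 were higher than any of the 8 core genes, and the peak of aPKC, at 160, was level with that of numb. Those of lgd, Fur1, rumi and aPKC were shared with TSSs of genes outside the list and cannot be assigned to a single gene.

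**Figure D4:**
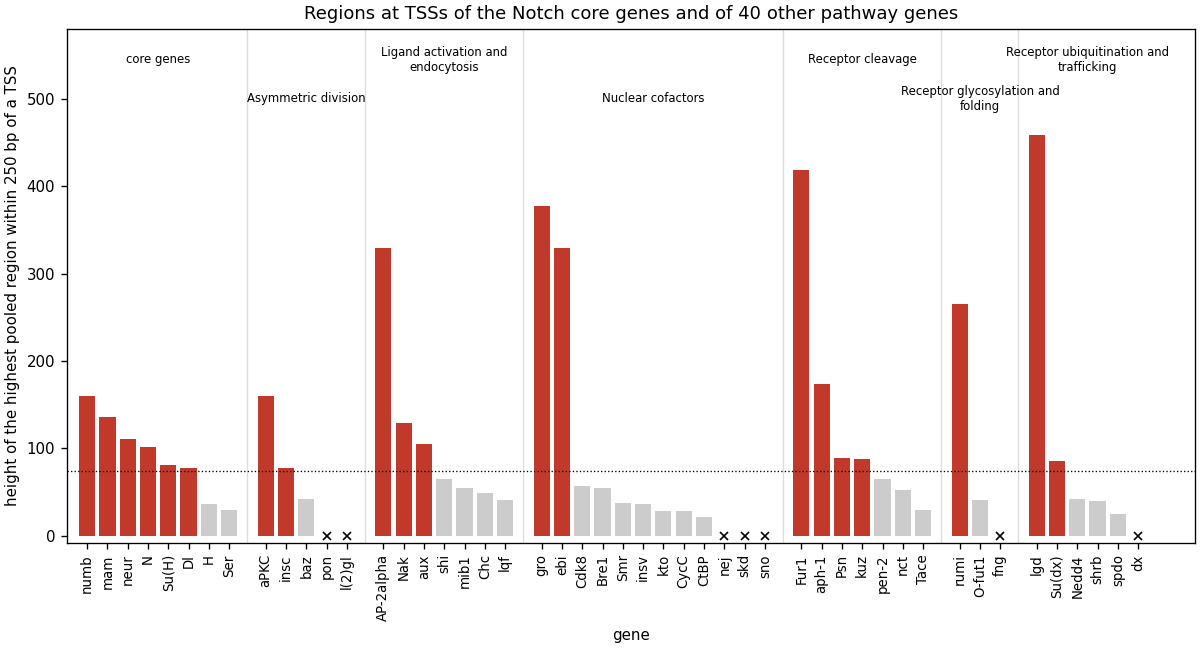
Height of the highest pooled region within 250 bp of a TSS (authors' signal value, unit not given) for the 8 core genes and 40 other pathway genes, grouped by role. Red bars reach the optimal set (dotted line, 74.1), grey bars do not, and crosses mark genes with no pooled region at a TSS. The core genes reach at most 160, while lgd, Fur1, gro, AP-2alpha, ebi, rumi and aph-1 stand higher.

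The genes whose pattern was most like that of numb were Unr, hang and Rad60. Likeness was the Euclidean distance over 4 log2 heights, the highest region at an own TSS and the highest elsewhere in the window in each replicate, and 5135 genes had all 4. For numb the highest region elsewhere was the peak at the TSS of scat, with heights of 49.7 in replicate 1 and 29.0 in replicate 3. The distances were 0.290, 0.380 and 0.401. For Unr the TSS heights were 81.5 in replicate 1 and 77.8 in replicate 3, close to the 75.5 and 86.9 of numb.

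Below the optimal set, the windows held 123 pooled regions. Of these, 58 had a region within 250 bp in both replicates, 55 in 1 replicate and 10 in neither. The same split was not taken over all pooled regions below the optimal set, so it is a description only. The windows held 38.8 pooled regions per 100 kb, beside 22.4 over all arms, and 14.0% of them were optimal, beside 13.0% of the whole pooled list.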

How the data were processed

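The authors deposited lists of ChIP-seq regions for each replicate and for the pooled replicates (30000 each), and an optimal set of 3897 peaks, in build dm6. The height used is the deposited signal value of each peak, and the labels state no unit for it. The −log10 q value of the deposited lists reached its ceiling of 4.08 at all member optimal peaks and was not used for ranking. Per the labels' protocols, chromatin was sonicated to 200 to 800 bp. The control alignment and the dm3 lists were not used. The aligner is not given in the sources used here, nor is the software that called regions. Library depth is likewise unknown, which precludes intervals for counting error.

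Summit positions (1-based) were placed on the Release 6 genome with gene models of Ensembl release 115. Of the 8 genes 7 matched by symbol, and Dl was taken as Delta. Windows reached 10 kb beyond each gene, and a TSS counted within 250 bp. Replicate heights came from the nearest summit within 250 bp. Sequences are from the Release 6 genome, outside exons. The members and lists were chosen with earlier results of these data known. Named were all members, bound pathway genes up to the 12 of highest signal, genes with a bound TSS in a member window, and the 3 genes most like the member with the highest TSS region. Alternatives were other distances, flanks and matching, whole intervals, each replicate alone and the highest 50% of optimal peaks. The counting code was tested on simulated data, and 5 of 5 checks passed. Python 3.11.15 with pandas 2.3.3, numpy 2.4.6 and matplotlib 3.10.9 was used.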

Additional observations from a re-analysis of the deposited data

How the results depend on the processing

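With the highest 50% of optimal peaks only, members with a bound TSS fell from 6 to 2 (mam and numb), members with an optimal summit in the window from 7 to 4, optimal summits from 20 to 6, those away from an own TSS from 12 to 4, and bound genes of the other pathway list from 14 to 9. A distance to the TSS of 100 bp left 7 of those 14 genes and 4 of the 6 members (not N and neur). Summits away from an own TSS numbered 7 with flanks of 5 kb, 22 with 20 kb and 7 with none, and without flanks 12 summits were left in all. With replicate 1 or 3 alone, taking its 3897 highest regions, bound members were 5 in each case: Su(H) was lost in replicate 1 and Dl in replicate 3. The same change gave 6 members with a summit in the window in both cases, 17 to 21 summits, 11 to 15 away from an own TSS and 13 to 14 bound genes of the other list. All other counts under these settings stayed within 1.5 times their value. The shares of all protein-coding genes were not taken again under these settings. Whether the changes are specific to the members is therefore not known. A smaller peak set can only lower or keep the counts of bound genes in any list. Taking the highest region within 250 bp changed the mean relative height of 3 of the 20 regions: the second numb peak from 0.693 to 1.49, the second neur TSS from 0.859 to 0.983 and the Kcmf1 peak from 0.713 to 0.837, of which the first moved by more than its SD. It put 15 regions instead of 12 among the highest of both replicates and 20 instead of 18 within 1 log2. The causes were not tested. With 2 replicates, an SD rests on a pair of values, and heights carry no known depth. No paired analysis was possible because there is 1 group.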
